A study of Mus musculus with 4 samples.

Results

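The genes of the proteasome were examined in 4 samples of mouse heart, each measured on 1 Affymetrix mouse expression array. A member was any gene whose single annotated symbol begins with Psma, Psmb, Psmc, Psmd, Psme or Psmf, and each was read from the 1 probe set with the highest mean over the 4 arrays. By this rule 45 of the 18193 measured genes were members. Of these, 43 encode subunits, activators, assembly chaperones or an inhibitor of the proteasome, and 2 (Psmc3ip and Psme3ip1) share the name but are not subunits. By the labels, the hearts came from 2 transgenic mice, Tg-Sirt1-1 and Tg-Sirt1-2, and 2 wild type mice, NTg-1 and NTg-2. Sirt1 is a deacetylase that depends on the cofactor NAD, and the series asks what it regulates in the heart. The hearts were removed and frozen after euthanasia with pentobarbital in both groups. The labels name no strain, sex or age, nor the promoter that drives the transgene or whether the transgenic mice belong to 1 line.

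The proteasome is the protease that degrades proteins tagged with ubiquitin, and in the heart it removes damaged and short-lived proteins. Its 20S core is a barrel of outer alpha rings and inner beta rings, in which 3 beta subunits cut peptide bonds. The 19S cap that sits on the core has a base, with a ring of ATPases that unfold the substrate, and a lid that removes the ubiquitin chain. In cells exposed to interferon, and in cells of the immune system, 3 immunoproteasome subunits take the place of the catalytic ones, and other activators can replace the 19S cap.

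The labels and the arrays differed in a way that bears on every comparison below. The arrays labelled Tg-Sirt1-1 and NTg-1 were nearly the same measurement. Over 45037 probe sets the SD of their differences was 0.0759 on the log2 scale and no probe set differed over 2-fold, while the other 5 pairs of arrays had SDs of 0.342 to 0.405 and 551 to 1101 probe sets over 2-fold. Over the 45 members they differed by at most 0.08. The values do not show whether these near-identical arrays came from separate hearts or from the same heart, nor which label would then hold. Sirt1 itself read 7.16 on Tg-Sirt1-1 and 7.93 on Tg-Sirt1-2, against 7.30 on NTg-1 and 7.17 on NTg-2, so the array labelled Tg-Sirt1-1 was not above the wild type arrays. Its mean was 7.55 ± 0.54 in Tg-Sirt1 and 7.24 ± 0.09 in NTg hearts (SD, n = 2 each), and limma gave an adjusted p of 0.994. The labels do not say whether its probes lie in the transgene. The names of the arrays below are those of the labels only, and "the pair" means the arrays labelled Tg-Sirt1-1 and NTg-1. Array control probe sets differed too: the 18 spike-in probe sets averaged 10.11 and 8.77 on the Tg-Sirt1 arrays and 10.12 and 10.88 on the NTg arrays. The 3' minus 5' signal of Gapdh, which rises as RNA is shortened, was 0.19 on Tg-Sirt1-1 and 1.34 on Tg-Sirt1-2, against 0.18 on NTg-1 and 0.69 on NTg-2. Cardiomyocyte markers were high on all arrays, with means over 9 of 9 listed genes of 13.53 and 13.43 on the Tg-Sirt1 arrays and 13.54 and 13.46 on the NTg arrays.

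Between the labels, no proteasome gene passed the test, while most had a slightly higher mean in the Tg-Sirt1 hearts. Of the 45 members, 36 had a higher Tg-Sirt1 mean and 9 a lower one, with log2 fold changes (Tg-Sirt1 minus NTg, log2 scale throughout) of -0.27 to 0.53 and a median of 0.12. Among all 18193 genes 53.1% had a higher Tg-Sirt1 mean and the median fold change was 0.015. The 1872 genes whose mean over the arrays was at least 10, a level that 28 members also reached, had a median of 0.12, with 76.1% of them higher. limma called 0 of the 45 members at an adjusted p under 0.05, against a background of 0% of all genes, and 10 of all genes and 0 members had an unadjusted p under 0.05. Every member had an adjusted p of 0.994. After a second quantile normalization of the arrays 26 of 45 members (57.8%) had a higher Tg-Sirt1 mean, against 52.5% of all genes. Without NTg-2 the members' median fold change was -0.045 and 13 of 45 (28.9%) had a higher Tg-Sirt1 mean, against 56.5% of all genes and 50.6% of genes with a mean of at least 10. In whole-heart RNA, fewer cells of a type and less RNA per cell cannot be told apart.

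**Figure D1:**
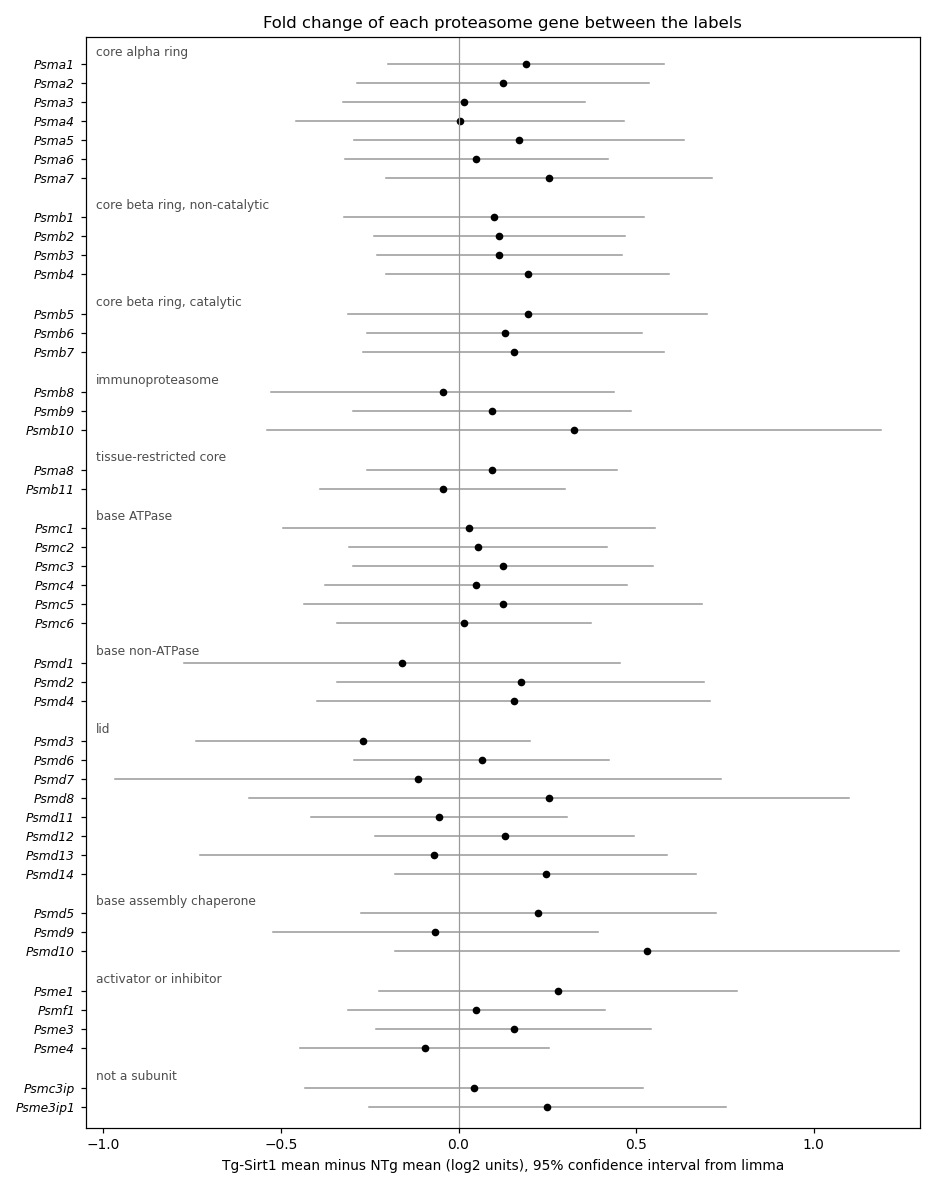
Log2 fold change of each member (Tg-Sirt1 mean minus NTg mean, log2 units, dots) with its 95% confidence interval from limma (bars), grouped by subunit class. All 45 intervals include 0, and the fold changes run from -0.27 for Psmd3 to 0.53 for Psmd10.

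Both Tg-Sirt1 arrays lay above both NTg arrays for 8 members (17.8%), against 11.4% of all genes, namely Psma1, Psma7, Psmb2, Psmb3, Psmb4, Psmd12, Psmd14 and Psme1. Psmd3, a lid subunit, was the 1 member (2.22%) for which both lay below, against 9.3% of all genes. Genes with a mean of at least 10 were more often separated upward. Both Tg-Sirt1 arrays lay above for 310 of those 1872 genes and for 7 of the 28 members as bright (25%). Both lay below for 58 of the 1872 genes and 0 of the 28 members. Because the pair is nearly 1 measurement, these counts rest on where Tg-Sirt1-2 and NTg-2 fell. They also rest on the sign of the small difference within the pair. Psmd10 was highest on Tg-Sirt1-2 and lowest on NTg-2, yet its groups overlapped because Tg-Sirt1-1 read 7.07 and NTg-1 7.08. Tg-Sirt1-2 and NTg-2 are therefore each also given as a difference from the mean of the pair. This is a description with no replicate check and no test.

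**Figure D2:**
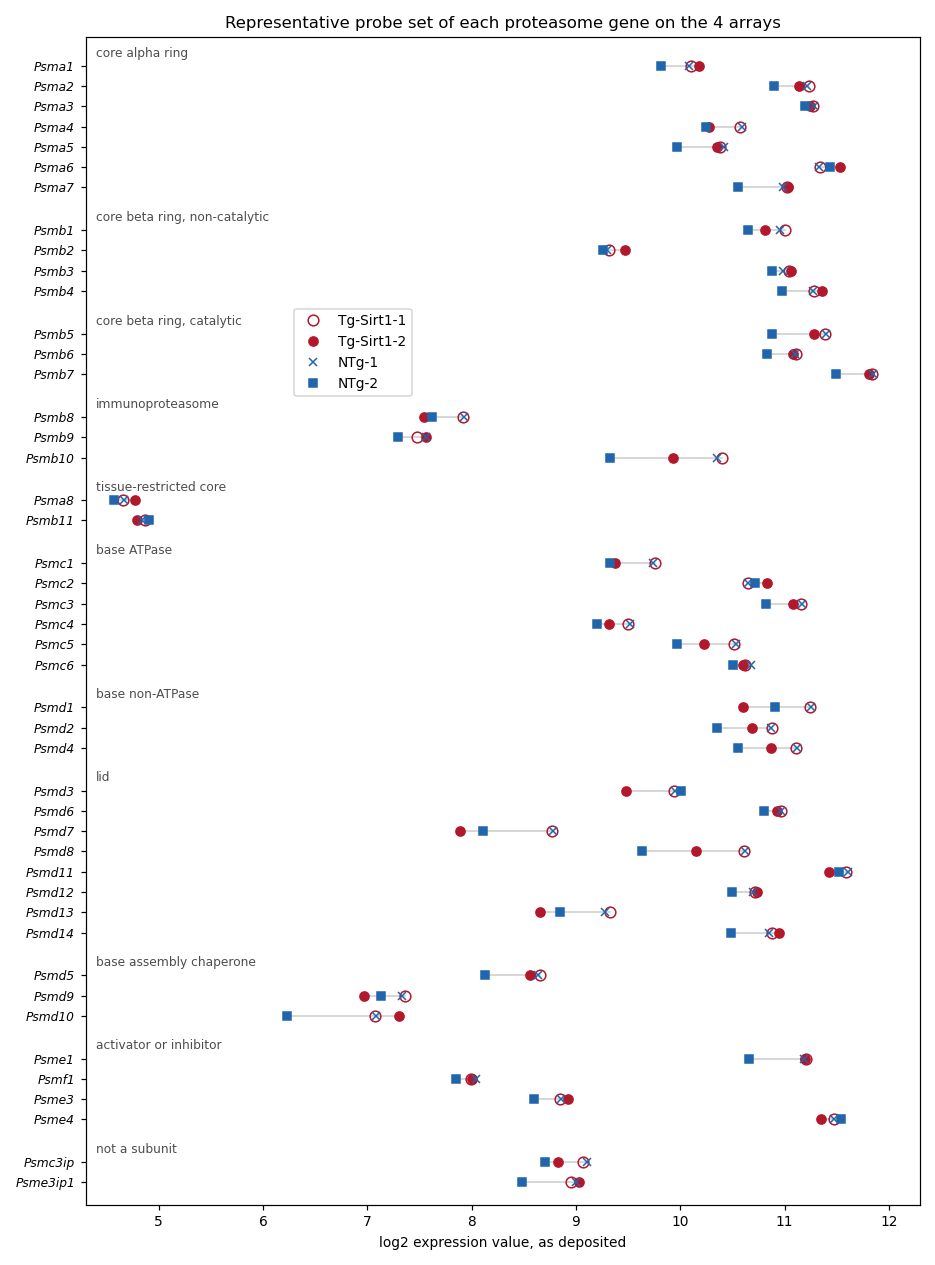
Deposited log2 value of the representative probe set of each member on the 4 arrays, by subunit class. Open circles (Tg-Sirt1-1) and crosses (NTg-1) lie within 0.08 of each other in every row, and the squares (NTg-2) are the lowest symbol in 34 of the 45 rows. Levels of different genes are read from different probes and are not compared.

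The main pattern by array was on NTg-2, which read lowest of the 4 arrays for 34 of 45 members (75.6%), against 37.9% of all genes. The difference of NTg-2 from the pair had a median of -0.33 over the members and -0.005 over all genes, and it was negative for 40 of the 45 members, 9142 of all 18193 genes and 1536 of the 1872 genes with a mean of at least 10. Bright genes in general shared this pattern in part: among genes with a mean of at least 10, NTg-2 was lowest for 69.8%, and among the 28 members at that level for 23 (82.1%). The median difference of NTg-2 from the pair was -0.33 over those 28 members and -0.24 over the 1872 genes. NTg-2 lay at least 0.5 below the pair for 10 members (22.2%), against 8.89% of all genes, and for 7 of the 28 bright members (25%), against 18.2% of genes as bright. After the second quantile normalization the members' median difference was -0.12, that of the 1872 genes was -0.018, and NTg-2 was lowest for 21 of 45 members, 6033 of all 18193 genes and 771 of the 1872.

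Tg-Sirt1-2 lay closer to the pair over the members as a whole, below it for 30 of the 45, against 7420 of all 18193 genes and 888 of the 1872 bright genes. It read lower for part of the 19S cap and for the immunoproteasome genes Psmb8 and Psmb10. It was the lowest array for 9 members (20%), against 23.2% of all genes, and the highest for 13 (28.9%), against 35.8%. Among the 28 bright members it was lowest for 3 (10.7%), against 17.3% of genes as bright. Its difference from the pair had a median of -0.065 over the members and 0.04 over all genes. It lay at least 0.5 below the pair for 3 members (6.67%), against 3.55% of all genes, and all 3 were 19S subunits: Psmd1, Psmd7 and Psmd13. Among the 28 bright members this held for 1 (3.57%), against 107 of the 1872 genes as bright.

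**Figure D3:**
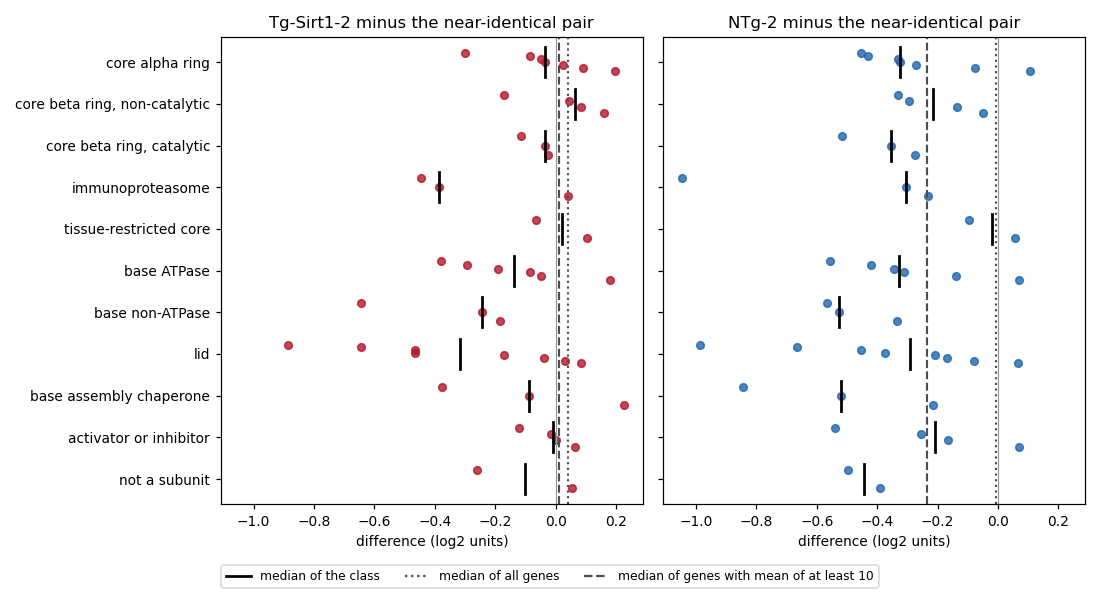
Difference of Tg-Sirt1-2 (left) and NTg-2 (right) from the mean of the near-identical pair, in log2 units, for each member (dots) by subunit class, with the class median (black bar), the median of all genes (dotted) and the median of genes with a mean of at least 10 (dashed). On Tg-Sirt1-2 the immunoproteasome, lid and base non-ATPase medians lie at -0.39, -0.32 and -0.25 while the 3 constitutive core classes lie between -0.035 and 0.065. On NTg-2 all classes but the tissue-restricted core have medians of -0.21 or lower.

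The 7 alpha subunits form the outer rings of the 20S core and gate the entry to its chamber. All 7 had a higher Tg-Sirt1 mean, with a median fold change of 0.13, and NTg-2 was the lowest array for 6 of them. Psma7 read 11.02 on Tg-Sirt1-1 and 11.03 on Tg-Sirt1-2, against 10.99 on NTg-1 and 10.55 on NTg-2. The first 3 of these arrays lay within 0.04 of each other, and NTg-2 stood 0.46 below the pair. The fold change of Psma7 was 0.26 ± 0.19 (SE), with an unadjusted p of 0.222 in limma. Psma5 read 10.38 and 10.35 on the Tg-Sirt1 arrays, against 10.42 and 9.97 on the NTg arrays, so the groups overlapped and again NTg-2 was low. Psma1 read 10.10 and 10.18 on the Tg-Sirt1 arrays, against 10.08 and 9.82 on the NTg arrays, and the groups did not overlap, though Tg-Sirt1-1 and NTg-1 were 0.02 apart. Psma6 went the other way: it read 11.34 and 11.53 on the Tg-Sirt1 arrays, against 11.33 and 11.44 on the NTg arrays, with both arrays outside the pair above it. Its other bright probe set did not share this and read 10.64 and 10.51 on the Tg-Sirt1 arrays, against 10.62 and 10.43 on the NTg arrays. Psma3 varied least of all members, by 0.08 over the 4 arrays.

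The 4 non-catalytic beta subunits line the inner rings beside the catalytic ones. By their representative probe sets, all 4 had a higher Tg-Sirt1 mean (median fold change 0.12) and were lowest on NTg-2. Psmb4 read 11.28 and 11.36 on the Tg-Sirt1 arrays, against 11.27 and 10.98 on the NTg arrays. A second probe set of Psmb4 read 10.67 and 10.84 on the Tg-Sirt1 arrays, against 10.67 on both NTg arrays. NTg-2 was not low there. Psmb1 read 11.00 and 10.81 on the Tg-Sirt1 arrays, against 10.96 and 10.65 on the NTg arrays, and its groups overlapped. The other probe sets of Psmb1 (means 7.19 and 6.31) were highest on NTg-2, while that of Psmb3 was lowest there. Psmb2 read 9.32 and 9.47 on the Tg-Sirt1 arrays, against 9.30 and 9.26 on the NTg arrays, where Tg-Sirt1-2 rather than NTg-2 stood away from the others.

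The catalytic subunits of the constitutive core are Psmb5, which cuts after hydrophobic residues, Psmb6, which cuts after acidic residues, and Psmb7, which cuts after basic residues. NTg-2 was the lowest array for all 3, and Tg-Sirt1-2 lay within 0.12 of the pair for each. Psmb5 read 11.39 and 11.28 on the Tg-Sirt1 arrays, against 11.40 and 10.88 on the NTg arrays. Its mean was 11.34 ± 0.08 in Tg-Sirt1 and 11.14 ± 0.37 in NTg hearts (SD, n = 2 each), a fold change of 0.20 with a 95% interval of -0.31 to 0.70. Psmb6 read 11.11 and 11.08 on the Tg-Sirt1 arrays, against 11.10 and 10.83 on the NTg arrays. Psmb7 read 11.84 and 11.81 on the Tg-Sirt1 arrays, against 11.85 and 11.49 on the NTg arrays. For each of the 3 the spread between the NTg arrays was larger than the difference between the group means, and without NTg-2 the fold changes were -0.065, -0.005 and -0.025 for Psmb5, Psmb6 and Psmb7.

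The 3 immunoproteasome subunits differed among themselves in which arrays were low. Psmb10, which takes the place of Psmb7, had, with Psmd10, the widest range of all members, 1.07. It read 10.40 on Tg-Sirt1-1 and 9.93 on Tg-Sirt1-2, against 10.35 on NTg-1 and 9.33 on NTg-2. Both arrays outside the pair were below it, by 0.45 for Tg-Sirt1-2 and 1.05 for NTg-2, so that the SD within the NTg group, 0.72, exceeded the fold change of 0.33 (SE 0.35, limma unadjusted p = 0.393). Psmb8, which replaces Psmb5, read 7.92 and 7.54 on the Tg-Sirt1 arrays, against 7.93 and 7.62 on the NTg arrays, also lower on both arrays outside the pair. Psmb9, which replaces Psmb6, read 7.48 and 7.56 on the Tg-Sirt1 arrays, against 7.56 and 7.29 on the NTg arrays, and only NTg-2 stood apart.

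Whether the balance of immune to constitutive catalytic subunits moved was asked within each array, as the mean of Psmb8, Psmb9 and Psmb10 minus the mean of Psmb5, Psmb6 and Psmb7. The size of this value depends on the probes, and its change between arrays is what can be read. It was -2.85 and -3.05 on the Tg-Sirt1 arrays and -2.84 and -2.99 on the NTg arrays. The group means differed by -0.035, and a two-sided exact permutation test over the 4 arrays gave p = 0.667, where the smallest p this design allows is 0.33 and the near-identical pair leaves little room for another value. On both arrays outside the pair the balance was lower than on the pair, by 0.21 for Tg-Sirt1-2 and 0.15 for NTg-2. By pair of subunits, the difference of NTg-2 from the pair was -0.69 for Psmb10 minus Psmb7, but 0.21 for Psmb8 minus Psmb5 and 0.045 for Psmb9 minus Psmb6, so on NTg-2 only the Psmb10 contrast was lower. On Tg-Sirt1-2 the values were -0.41 for Psmb10 minus Psmb7, -0.27 for Psmb8 minus Psmb5 and 0.065 for Psmb9 minus Psmb6. The difference of group means was 0.0083 after the second quantile normalization and 0.065 without Tg-Sirt1-2, the opposite sign. Leukocytes express the immunoproteasome at high levels, and their markers moved on the same arrays without a common direction. Coro1a, an actin regulator of leukocytes, read 7.19 and 6.17 on the Tg-Sirt1 arrays and 7.29 and 6.20 on the NTg arrays, while Ptprc, the leukocyte antigen CD45, read 7.47 and 7.90 on the Tg-Sirt1 arrays and 7.59 and 7.05 on the NTg arrays. The 4 of 4 leukocyte markers measured averaged 7.63 and 7.60 on the Tg-Sirt1 arrays and 7.66 and 7.37 on the NTg arrays. The 9 of 9 macrophage markers averaged 8.70 and 8.49 on the Tg-Sirt1 arrays and 8.71 and 8.28 on the NTg arrays. Of these markers, 8 were lower on NTg-2 than on the pair, against 9142 of all 18193 genes. The part of the leukocyte and macrophage markers in the immunoproteasome values was not tested.

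The tissue-restricted core subunits are Psma8 of the testis and Psmb11 of the thymus cortex. Psma8 read 4.66 and 4.77 on the Tg-Sirt1 arrays, against 4.67 and 4.57 on the NTg arrays. Psmb11 read 4.87 and 4.79 on the Tg-Sirt1 arrays, against 4.84 and 4.91 on the NTg arrays. All 8 values lay under the median of all probe sets, which was 6.22 to 6.30 by array, and neither gene varied by more than 0.20.

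The 6 ATPases Psmc1 to Psmc6 form the unfolding ring of the base. All 6 had a higher Tg-Sirt1 mean, by 0.015 to 0.13, with a median of 0.053 that became -0.043 after the second quantile normalization. Psmc5 read 10.52 and 10.23 on the Tg-Sirt1 arrays, against 10.53 and 9.97 on the NTg arrays. Psmc1 read 9.76 and 9.37 on the Tg-Sirt1 arrays, against 9.74 and 9.33 on the NTg arrays, so that the arrays outside the pair were both about 0.4 below it and close to each other. Psmc3 read 11.16 and 11.08 on the Tg-Sirt1 arrays, against 11.17 and 10.82 on the NTg arrays. The groups overlapped for these 3 ATPases, and Psmc2 was the 1 ATPase whose representative probe set put both arrays outside the pair above it, by 0.18 on Tg-Sirt1-2 and 0.07 on NTg-2. A second bright probe set of Psmc2 put them below it, with differences of -0.13 for Tg-Sirt1-2 and -0.25 for NTg-2.

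The non-ATPase subunits of the base, Psmd1, Psmd2 and Psmd4, hold the shuttle factors and ubiquitin chains that bring substrates. All 3 were below the pair on both Tg-Sirt1-2 and NTg-2. Psmd1, a large scaffold subunit, read 11.24 and 10.60 on the Tg-Sirt1 arrays, against 11.25 and 10.91 on the NTg arrays, and here Tg-Sirt1-2 was the lowest. Psmd2, its partner that docks shuttle factors, read 10.88 and 10.69 on the Tg-Sirt1 arrays, against 10.87 and 10.35 on the NTg arrays. Psmd4, a ubiquitin receptor, read 11.11 and 10.87 on the Tg-Sirt1 arrays, against 11.12 and 10.55 on the NTg arrays. For Psmd2 and Psmd4 the order was the reverse of that for Psmd1, with NTg-2 lowest and Tg-Sirt1-2 between it and the pair.

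The 8 lid subunits split evenly, with 4 higher and 4 lower Tg-Sirt1 means and a median fold change of 0.005, which became -0.089 after the second quantile normalization. Psmd7, the scaffold partner of the deubiquitinase in the lid, read 8.77 and 7.89 on the Tg-Sirt1 arrays, against 8.78 and 8.11 on the NTg arrays. Psmd13, a structural subunit, read 9.33 and 8.66 on the Tg-Sirt1 arrays, against 9.28 and 8.85 on the NTg arrays. Psmd8, whose yeast counterpart completes the lid as it assembles, read 10.61 and 10.15 on the Tg-Sirt1 arrays, against 10.62 and 9.63 on the NTg arrays. For these 3 genes both arrays outside the pair were lower than it, by 0.46 to 0.99. Psmd3 read 9.94 and 9.48 on the Tg-Sirt1 arrays, against 9.95 and 10.01 on the NTg arrays, and in this case Tg-Sirt1-2 alone was low. Its fold change was -0.27 ± 0.19 (SE), with a limma unadjusted p of 0.209 and groups that were 0.01 apart at their nearest values. Psmd14, the deubiquitinase itself, differed from these: it read 10.88 and 10.95 on the Tg-Sirt1 arrays, against 10.85 and 10.49 on the NTg arrays, with only NTg-2 low. Psmd6, Psmd11 and Psmd12 varied by 0.17 to 0.24 over the arrays.

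Set against the core, the class means of the 19S cap were lower on Tg-Sirt1-2 than on the other arrays, though not all cap genes were low there. Of the 17 cap genes, Tg-Sirt1-2 was the lowest array for 5, against 23.2% of all genes. It was the highest for 3, against 35.8% of all genes. The mean of the 8 lid genes minus the mean of the 14 constitutive core genes was -0.57 and -0.87 on the Tg-Sirt1 arrays, against -0.57 and -0.66 on the NTg arrays. The same value for the 3 non-ATPase base genes was 0.16 and -0.18 on the Tg-Sirt1 arrays, against 0.17 and -0.05 on the NTg arrays, and for the 6 ATPases it was -0.55 and -0.66, against -0.53 and -0.56. Tg-Sirt1-2 gave the lowest of the 4 values in each of these contrasts, and the group means differed by -0.11, -0.073 and -0.063. These contrasts were chosen after the values were seen. The two-sided exact permutation test over the 4 arrays gave p = 0.667 for each. The smallest p this design allows is 0.33, so the test cannot decide whether they differ between the labels. Tg-Sirt1-2 was also the array with the largest 3' minus 5' control signal, 1.92 for Actb and 1.34 for Gapdh, and its part in the cap values was not tested.

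The assembly chaperones of the base bind the ATPases before the ring closes. Psmd10, known as gankyrin, had the largest fold change of all members. It read 7.07 and 7.30 on the Tg-Sirt1 arrays, against 7.08 and 6.23 on the NTg arrays, so NTg-2 alone was 0.85 below the pair and the groups overlapped by 0.01. The fold change of 0.53 had an SE of 0.29, a 95% interval of -0.18 to 1.24 and the lowest unadjusted p of the members, 0.117 in limma. Without NTg-2 the fold change was 0.105. Psmd5 read 8.66 and 8.56 on the Tg-Sirt1 arrays, against 8.64 and 8.13 on the NTg arrays. Psmd9 read 7.36 and 6.97 on the Tg-Sirt1 arrays, against 7.33 and 7.13 on the NTg arrays, with Tg-Sirt1-2 lowest.

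Of the activators that open the core without ATP, Psme1 (the alpha subunit of PA28, which interferon induces) read 11.21 and 11.20 on the Tg-Sirt1 arrays, against 11.19 and 10.66 on the NTg arrays. Psme3, the nuclear PA28 gamma, read 8.85 and 8.92 on the Tg-Sirt1 arrays, against 8.86 and 8.60 on the NTg arrays. Both were lowest on NTg-2, and Tg-Sirt1-2 lay within 0.07 of the pair. Psme4, the large activator PA200, read 11.47 and 11.35 on the Tg-Sirt1 arrays, against 11.47 and 11.54 on the NTg arrays, and was, with Psmb11 and Psmd3, 1 of 3 members highest on NTg-2. The 2 other probe sets of Psme4 with a mean of at least 8 had NTg-2 below the pair, one reading 11.43 and 11.48 on the Tg-Sirt1 arrays, against 11.44 and 11.36 on the NTg arrays, and the other 10.71 and 10.18 on the Tg-Sirt1 arrays, against 10.70 and 10.28 on the NTg arrays. Psmf1, an inhibitor of the core, read 7.99 and 8.0 on the Tg-Sirt1 arrays, against 8.04 and 7.85 on the NTg arrays. Psme2, the partner of Psme1, shared its only probe set used here with Psme2b and was left out. Of the genes that are not subunits, Psmc3ip, a factor of meiotic recombination, read 9.07 and 8.83 on the Tg-Sirt1 arrays, against 9.11 and 8.70 on the NTg arrays. Psme3ip1, a partner protein of Psme3, read 8.95 and 9.03 on the Tg-Sirt1 arrays, against 9.0 and 8.48 on the NTg arrays. By these probe sets NTg-2 was thus also the lowest array for these 2 genes. A second probe set of Psmc3ip read 7.82 and 7.91 on the Tg-Sirt1 arrays, against 7.80 and 8.14 on the NTg arrays.

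Other probe sets of the same genes gave a check on these single-array differences, since 24 members had more than 1 and the array held 50 besides the representatives. The difference of NTg-2 from the pair had the opposite sign to that of the representative in 30 of the 50, and in 8 of the 17 whose mean was at least 8. For Tg-Sirt1-2 the sign was the same in 23 of the 50 and in 8 of the 17. The low reading of Psmd13 on Tg-Sirt1-2 recurred in all of its other probe sets, of which the brightest read 8.60 and 8.02 on the Tg-Sirt1 arrays, against 8.58 and 8.43 on the NTg arrays. Psmd4 was lower still on a second probe set, which read 9.19 and 8.18 on the Tg-Sirt1 arrays, against 9.17 and 8.38 on the NTg arrays, while its dimmest one read 7.69 and 7.75 on the Tg-Sirt1 arrays, against 7.68 and 7.94 on the NTg arrays. For Psma7 the second probe set kept the low NTg-2 value and read 10.32 and 10.56 on the Tg-Sirt1 arrays, against 10.29 and 9.78 on the NTg arrays. Psmd11, a lid subunit that joins lid to base, split by probe set: one read 9.53 and 8.67 on the Tg-Sirt1 arrays, against 9.58 and 9.18 on the NTg arrays, and another 10.29 and 10.66 on the Tg-Sirt1 arrays, against 10.28 and 10.38 on the NTg arrays. Psmc6 was near the pair on its representative, yet a second probe set read 8.57 and 9.23 on the Tg-Sirt1 arrays, against 8.55 and 8.59 on the NTg arrays. Psmc4 was below the pair on both other arrays by its representative. Its second probe set read 8.84 and 9.40 on the Tg-Sirt1 arrays, against 8.84 and 8.92 on the NTg arrays. The other probe sets of Psmd7 had means under 8 and lay -0.085 and 0.33 from the pair on Tg-Sirt1-2.

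**Figure D4:**
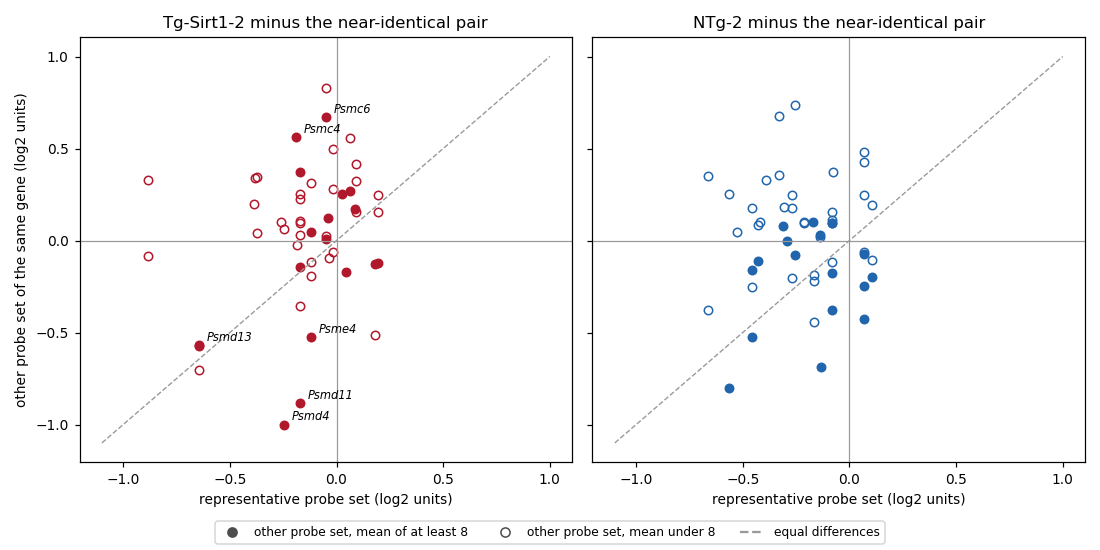
Difference from the near-identical pair (log2 units) of each of the 50 other probe sets against that of the representative probe set of the same gene, for Tg-Sirt1-2 (left) and NTg-2 (right). Filled symbols have a mean of at least 8 and those at least 0.5 from the pair on Tg-Sirt1-2 are named. Points at the upper left and lower right of the crossing 0 lines have opposite signs on the 2 probe sets, as 30 of 50 did for NTg-2.

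Genes that build, regulate or work with the proteasome gave no call either: of 58 distinct genes measured in 7 lists, 42 had a higher and 16 a lower Tg-Sirt1 mean, 0 were called, and 0 had an unadjusted p under 0.05 in limma. Their median fold change was 0.12, and NTg-2 was the lowest array for 36 of the 58, against 37.9% of all genes and 69.8% of genes with a mean of at least 10. Among the 7 assembly factors measured, 6 had a higher and 1 a lower Tg-Sirt1 mean. Pomp, which escorts the beta ring during core assembly, read 10.89 and 11.05 on the Tg-Sirt1 arrays, against 10.92 and 10.47 on the NTg arrays. Psmg1, a chaperone of the alpha ring, read 9.52 and 9.70 on the Tg-Sirt1 arrays, against 9.57 and 9.24 on the NTg arrays. Its partner Psmg2 read 9.35 and 10.01 on the Tg-Sirt1 arrays, against 9.43 and 8.73 on the NTg arrays. For all 3, Tg-Sirt1-2 was highest and NTg-2 lowest.

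Proteasome genes are induced together by Nfe2l1, a transcription factor that is itself a proteasome substrate, and some respond to the related Nfe2l2 under oxidative stress. Nfe2l1 read 10.88 and 10.05 on the Tg-Sirt1 arrays, against 10.88 and 10.75 on the NTg arrays, so Tg-Sirt1-2 alone was low. Nfe2l2 read 10.52 and 10.42 on the Tg-Sirt1 arrays, against 10.52 and 10.03 on the NTg arrays. The 8 targets of Nfe2l2 that were listed had 4 higher and 4 lower Tg-Sirt1 means. Among them Nqo1, a quinone reductase, read 8.26 and 8.77 on the Tg-Sirt1 arrays, against 8.28 and 9.14 on the NTg arrays. Gclm, of glutathione synthesis, read 8.41 and 7.69 on the Tg-Sirt1 arrays, against 8.44 and 8.45 on the NTg arrays. Neither of these 2 was low on NTg-2, but 5 of the 8 targets were below the pair there, among them Gstm1, a glutathione transferase, at 11.77 and 11.60 on the Tg-Sirt1 arrays, against 11.77 and 11.27 on the NTg arrays. The list's median for NTg-2 minus the pair was -0.24.

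The element these factors bind was looked for in the 250 bases before the annotated starts of the members, to show which promoters hold its letters. RefSeq promoters (GRCm38.p6) were matched for 38 of the 45 member genes, in 41 windows. No promoter was matched for Psma8, Psmb1, Psmb2, Psmb7, Psmc3, Psmd3 and Psmd7, so these genes were not searched. On either strand, TGACNNNGC was found in 5 genes (12.2% of the member windows, against 10.2% of all 32851 windows) and the related TGAGNNNGC in 9 genes (24.4%, against 14.4%). One form or the other was found in 12 genes, in 31.7% of member windows and 23.0% of all windows. The 5 genes with the first form are printed 5′ to 3′ along the strand of the gene, with the motif in capitals, because they include the catalytic subunits Psmb5 and Psmb6. For Psmc6 and Psmd12 the motif lies on the opposite strand and its letters appear reversed and complemented.
Psmb5: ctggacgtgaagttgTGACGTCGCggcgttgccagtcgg
Psmb6: gcggactaaagagagTGACGGAGC
Psmd9: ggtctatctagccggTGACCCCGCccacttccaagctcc
Psmc6: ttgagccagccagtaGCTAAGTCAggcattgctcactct
Psmd12: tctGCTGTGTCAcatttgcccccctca
They lie at chr14:54618019-54618057 (minus strand) for Psmb5, chr11:70525333-70525356 (plus strand) for Psmb6, chr5:123228144-123228182 (plus strand) for Psmd9, chr14:45329582-45329620 (plus strand) for Psmc6 and chr11:107479278-107479304 (plus strand) for Psmd12. Their distance to the annotated start runs from 9 bases in Psmb6 to 247 bases in Psmd12. Over the 12 members with either form, the difference of NTg-2 from the pair had a median of -0.25, and over the 26 members with a promoter and neither form it was -0.35. A match is a description of the letters in this window and not evidence of binding.

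Interferon induces the immunoproteasome genes, and genes of antigen presentation served as a comparison. Of 14 measured, 10 had a higher and 4 a lower Tg-Sirt1 mean. Their median for NTg-2 minus the pair was -0.40, against -0.005 over all genes and -0.24 over genes with a mean of at least 10. B2m, the light chain of MHC class I, read 11.92 and 12.09 on the Tg-Sirt1 arrays, against 11.89 and 11.48 on the NTg arrays. H2-D1, a class I heavy chain, read 11.89 and 11.10 on the Tg-Sirt1 arrays, against 11.86 and 11.35 on the NTg arrays. Class I heavy chain genes are near-identical, so probes for H2-D1 may also read its relatives. H2-D1, like Psmb10, was thus low on both arrays outside the pair, and B2m only on NTg-2. Tap1, the peptide transporter, read 7.41 and 7.37 on the Tg-Sirt1 arrays, against 7.44 and 7.12 on the NTg arrays. Irf1, a factor that activates Psmb9 and Tap1, read 9.60 and 9.29 on the Tg-Sirt1 arrays, against 9.61 and 9.43 on the NTg arrays. Ifit1, a gene induced by type I interferon, read 6.38 and 6.52 on the Tg-Sirt1 arrays, against 6.41 and 5.28 on the NTg arrays. Ifit1 was low only on NTg-2, while Irf1 was lowest on Tg-Sirt1-2. Ifit3 and Irf7 lay within 0.05 of the pair on NTg-2. Ifit3 read 7.15 and 7.30 on the Tg-Sirt1 arrays, against 7.17 and 7.21 on the NTg arrays. Irf7 read 5.88 and 5.80 on the Tg-Sirt1 arrays, against 5.93 and 5.90 on the NTg arrays. Gbp2, Erap1 and Irf9 were lowest on NTg-2, with differences from the pair of -0.59, -0.595 and -0.2. Of the 14 genes, NTg-2 was below the pair for 12 and above it for 2. It was below the pair for 9142 of all 18193 genes and 1536 of the 1872 with a mean of at least 10. The interferon-stimulated element, searched on both strands as GAAA and GAAA with 2 bases of any kind between, was found in the promoters of 3 members (Psmb3, Psmd4 and Psmd9; 7.32% of member windows, against 2.98% of all), and CCAAT in 16 (39.0%, against 33.8%).
In these windows the interferon motif read as follows, on the opposite strand for Psmb3 and Psmd4.
Psmb3: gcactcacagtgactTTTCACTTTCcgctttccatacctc
Psmd4: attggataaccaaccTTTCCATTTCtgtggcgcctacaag
Psmd9: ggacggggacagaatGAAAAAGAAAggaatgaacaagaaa
They lie at chr11:97703256-97703295 (plus strand), chr3:95042670-95042709 (minus strand) and chr5:123228016-123228055 (plus strand). The windows of Psmb8, Psmb9 and Psmb10 did not hold these letters.

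Factors that work with the proteasome followed the members on NTg-2 in part. Sem1, a small lid subunit outside the naming rule, read 11.82 and 11.51 on the Tg-Sirt1 arrays, against 11.84 and 11.08 on the NTg arrays. Usp14, a deubiquitinase that docks on Psmd2, read 10 and 10.25 on the Tg-Sirt1 arrays, against 9.97 and 10.17 on the NTg arrays. Uchl5, the other docked deubiquitinase, read 9.47 and 9.73 on the Tg-Sirt1 arrays, against 9.43 and 9.52 on the NTg arrays. Both deubiquitinases were higher on the arrays outside the pair than on it, unlike Sem1. Vcp, the segregase that extracts substrates, read 11.88 and 11.54 on the Tg-Sirt1 arrays, against 11.83 and 11.32 on the NTg arrays. Of the 8 muscle ubiquitin ligases measured, 6 had a higher and 2 a lower Tg-Sirt1 mean. Fbxo32 (atrogin-1), the ligase component induced in muscle wasting, read 11.06 and 11.30 on the Tg-Sirt1 arrays, against 11.07 and 10.29 on the NTg arrays, while Trim63 (MuRF1) read 9.92 and 10 on the Tg-Sirt1 arrays, against 9.93 and 10.28 on the NTg arrays. These 2 ligases thus lay on opposite sides of the pair on NTg-2. Over the list NTg-2 was below the pair for 6 of the 8 and above it for 2. The list median for NTg-2 minus the pair was -0.51, against -0.005 over all genes and -0.24 over genes with a mean of at least 10. Fbxo30 read 8.19 and 8.40 on the Tg-Sirt1 arrays, against 8.23 and 7.43 on the NTg arrays. Stub1 read 10.46 and 9.97 on the Tg-Sirt1 arrays, against 10.45 and 9.81 on the NTg arrays.

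Cell type markers also differed on NTg-2. All 6 of 6 fibroblast markers were lowest there, against 37.9% of all genes and 69.8% of genes with a mean of at least 10. The fibroblast list means were 11.07 and 10.70 on the Tg-Sirt1 arrays and 11.07 and 10.15 on the NTg arrays. The 6 of 6 skeletal muscle genes averaged 6.94 and 6.74 on the Tg-Sirt1 arrays and 6.97 and 7.78 on the NTg arrays, where Acta1, skeletal alpha-actin, read 7.23 and 6.46 on the Tg-Sirt1 arrays and 7.37 and 12.17 on the NTg arrays. Without Acta1 no gene of that list differed by more than 0.28 between NTg-2 and the pair, and Ckm and Atp2a1 were lower on NTg-2. The 5 of 7 neutrophil markers measured averaged 6.43 and 6.54 on the Tg-Sirt1 arrays and 6.49 and 7.37 on the NTg arrays. On NTg-2, S100a8 and S100a9 lay 1.86 and 1.68 above the pair, and Mpo, Ngp and Camp 0.445, 0.345 and 0.195 above it. Endothelial markers (6 of 6) averaged 9.36 and 9.03 on the Tg-Sirt1 arrays and 9.35 and 8.97 on the NTg arrays. T cell markers (5 of 6), B cell markers (3 of 4) and erythroid markers (2 of 4) had list means between 5.59 and 6.51 on every array. The part of these differences in the low proteasome values on NTg-2 was not tested.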

How the data were processed

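By the labels, total RNA from 4 hearts was hybridised to 1 array each. The deposited values are log2 expression values, 1 per probe set and array, made by the authors with RMA in Affymetrix Expression Console, per the submitters' processing notes; their versions are not stated, detection calls were not used, and the small number of arrays (4) sets how precise a value can be. After 64 controls were left out, 34945 of 45037 probe sets carried 1 symbol in GEO's platform annotation, 932 several and 9160 none; all 45 member symbols were unchanged in RefSeq. Each of 18193 genes was read from its probe set with the highest mean and tested with limma 3.58.1 in R 4.3.3 (lmFit and eBayes, prior df 3.968, residual df 2), with Benjamini-Hochberg adjustment over all genes and a threshold of 0.05. Single-array differences have no test, and 0.5 log2 units was the size counted. The contrast of immunoproteasome and constitutive catalytic genes, and those of the cap classes and the core, used a two-sided exact permutation test (SciPy 1.17.1). The labels do not say more of how the hearts relate, so p-values measure only the spread between these arrays.

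The members, the lists and the rule for named genes were chosen with earlier results of these data known. The rule gives values on every array for catalytic, immunoproteasome, tissue-restricted, activator and inhibitor genes. It adds the 3 members of each class with the widest range, for 32 members in all. For the pathway lists it sets fixed genes and the 3 of each list with the widest range, some of which are not given here. Others were named after their values were seen, Psmd3, Psmd14, Psma3 and Psma6 among them. Lists are described by counts and medians, without list tests. Alternatives were leaving out each array, the replicate block, a second quantile normalization, centring, a filter on dim probe sets, an offset of 16, other choices of probe set, counting the near-identical arrays once under either label, and other moderation. The restriction to genes with a mean of at least 10, the class contrasts of the cap and the other probe sets were added after seeing the data.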

Additional observations from a re-analysis of the deposited data

How the results depend on the processing

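The count of genes called by limma was 0 in every alternative except the test without moderation, which called 7, all with no spread within either label and 0 of them members. With the replicate number as a replicate block the count was 0, the members' median fold change 0.115, the members with a higher Tg-Sirt1 mean 36 and the immunoproteasome minus constitutive difference -0.035; the block changed no call. The labels do not say that the numbers pair the mice, and the correlation of same-numbered deviations was 0.293 over 2 pairs, which the near-identical arrays share. Leaving out each array gave a member median of -0.045 to 0.235, 13 to 40 members higher and an immunoproteasome difference of -0.135 to 0.065. The last was 0.0083 after a second quantile normalization and 0.0425 with the pair counted once as Tg-Sirt1, which were reversed. The median of Tg-Sirt1-2 minus the pair became -0.035 with the mean over probe sets. That of NTg-2 became -0.1206 after the second quantile normalization, -0.39 with centring and -0.21 with the mean over probe sets.

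Leaving out each array, the class medians that changed sign ranged from -0.025 to 0.285 for the alpha ring, -0.025 to 0.335 for catalytic, -0.185 to 0.23 for immunoproteasome, -0.09 to 0.2225 for ATPase, -0.13 to 0.435 for non-ATPase base, -0.17 to 0.185 for lid, -0.03 to 0.48 for base chaperone and -0.015 to 0.215 for activator and inhibitor genes. The fold changes that changed sign ranged from -0.055 to 0.395 (Psma5), -0.055 to 0.255 (Psmb1), -0.185 to 0.835 (Psmb10), -0.065 to 0.455 (Psmb5), -0.005 to 0.265 (Psmb6), -0.025 to 0.335 (Psmb7), -0.235 to 0.145 (Psmb8), -0.04 to 0.23 (Psmb9), -0.175 to 0.235 (Psmc1), -0.05 to 0.3 (Psmc3), -0.16 to 0.25 (Psmc3ip), -0.155 to 0.405 (Psmc5), -0.48 to 0.16 (Psmd1), -0.405 to 0.265 (Psmd13), -0.085 to 0.435 (Psmd2), -0.13 to 0.44 (Psmd4), -0.03 to 0.48 (Psmd5), -0.555 to 0.325 (Psmd7), -0.24 to 0.75 (Psmd8), -0.26 to 0.13 (Psmd9), -0.01 to 0.51 (Psme3ip1) and -0.045 to 0.145 (Psmf1). Those of Psmd10 (0.105 to 0.955), Psma7 (0.035 to 0.475) and Psme1 (0.015 to 0.545) kept their sign but moved widely. Of the 32 named members, 17 changed sign without NTg-2 and 5 without Tg-Sirt1-2.

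Signs also turned after the second quantile normalization for the ATPase median (-0.0425), the lid median (-0.0888), Psmc1 (-0.0637), Psmc3ip (-0.03) and Psmf1 (-0.0062). With the mean over probe sets they turned for the non-ATPase base median (-0.0083), Psmb1 (-0.095), Psmc3ip (-0.03), Psmd4 (-0.0083) and Psmd9 (0.035), and without probe sets ending in _x_at or _s_at for Psme4 (0.055). With the pair counted once as NTg they turned for the lid median (-0.0513), Psmb1 (-0.005), Psmc1 (-0.17), Psmc3ip (-0.065) and Psmc5 (-0.0175). Counted once as Tg-Sirt1, they turned for Psmb8 (0.1125), Psmd1 (0.0125), Psmd13 (0.1325), Psmd7 (0.2225) and Psmd9 (0.0275). The causes were not tested.

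With 2 arrays per label, of which 1 in each is nearly the same measurement, limma had little power, with a lowest adjusted p of 0.994. Some representative probe sets (ending in _x_at or _s_at) can bind related transcripts. Differences of single arrays have no replicate check.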
